A study of Mus musculus with 12 samples.

Results

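The type II classical cadherins Cdh6, Cdh7, Cdh8, Cdh9, Cdh10, Cdh11, Cdh12, Cdh18, Cdh20 and Cdh22 were followed through lists of accessible chromatin, 10 genes of 21938 protein-coding genes in the annotation. They were chosen by name as adhesion genes, with earlier results of these data known. The type II cadherins Cdh5, Cdh19 and Cdh24 are not among them, and the family below means the 10 genes. An accessible domain, a stretch of open chromatin called from ATAC-seq reads, was assigned to a gene when it overlapped a window of 1 kb to either side of a protein-coding transcription start site (TSS) or the gene body, or when a TSS of that gene was the nearest protein-coding TSS. By this rule the 10 genes held 357 of 94875 domains in embryoid bodies (EBs), 295 of 87916 in progenitors, 328 of 88806 in the day 4 control without doxycycline (No Dox), 357 of 91181 after induction of Hoxc6 (iHoxc6), 291 of 63504 after induction of Hoxc9 (iHoxc9) and 194 of 56232 after that of Hoxc10 (iHoxc10). No domain counted for more than 1 of the genes.

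Classical cadherins are transmembrane proteins that bind cadherins on neighbouring cells and are tied to the actin cytoskeleton through catenins. Type II cadherins are expressed in overlapping combinations by spinal motor neurons, and these combinations help motor neurons that supply the same muscle to sort into a motor pool. Hox transcription factors set the columnar and pool identities of motor neurons along the rostrocaudal axis of the spinal cord.

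The cells were mouse embryonic stem cells grown as EBs. EBs without patterning signals and progenitors at day 2, after retinoic acid (RA, 1 µM) and the Hedgehog agonist SAG (0.5 µM) from day 0, carried the Ainv15(iCre) genotype. The iHoxc6, iHoxc9 and iHoxc10 groups carried Ainv15(iFlag.Hoxc6), Ainv15(iFlag.Hoxc9) and Ainv15(iFlag.Hoxc10), whose Flag-tagged Hox transgene responds to doxycycline (Dox). They received RA and SAG as the progenitors did, then Dox at 3 µg/mL for 48 h from day 2, and were collected at day 4. No Dox cells carried Ainv15(iFlag.Hoxc6), received RA and SAG without Dox, and were also collected at day 4. Each group had 2 samples and 1 list made from both, so no value below has a replicate error, no difference could be tested against the spread between samples, and all intervals are 95% Wilson intervals that cover the counting of domains only. EBs and progenitors came from another line than the day 4 groups, and in iHoxc9 and iHoxc10 the line, the Dox treatment and the Hox factor all differ from No Dox, so these cannot be told apart. In iHoxc6, which shares its line with No Dox, Dox and the Hox factor cannot be told apart. The No Dox list also came from a separate series of records and has another format than the rest. Depth is unknown, the lists hold no expression value for the transgenes, and in these bulk samples fewer open cells cannot be told apart from less open chromatin per cell.

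The sequences that carry the main patterns are given first, all from GRCm38 (mm10), 5′ to 3′. Capitals mark TAAT, a core bound by central Hox factors, and TTTAT, a core bound by posterior Hox factors. A match on the other strand appears as ATTA for the former and ATAAA for the latter, and marked letters may overlap. The first pair are RefSeq promoter windows on the plus strand, from 250 bases before to 50 after the start, at 2 genes whose promoter domains differed between lists: Cdh12 at chr15:21111202-21111501 and Cdh9 at chr15:16728665-16728964. Of 32851 such windows in the mouse, 58.0% held TAAT and 40.0% held TTTAT.
Cdh12 promoter: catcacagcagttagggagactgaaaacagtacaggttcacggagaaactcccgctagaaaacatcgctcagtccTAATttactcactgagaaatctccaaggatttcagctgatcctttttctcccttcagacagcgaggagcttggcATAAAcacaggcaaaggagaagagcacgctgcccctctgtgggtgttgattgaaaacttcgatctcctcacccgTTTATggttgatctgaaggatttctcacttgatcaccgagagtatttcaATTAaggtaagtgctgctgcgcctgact
Cdh9 promoter: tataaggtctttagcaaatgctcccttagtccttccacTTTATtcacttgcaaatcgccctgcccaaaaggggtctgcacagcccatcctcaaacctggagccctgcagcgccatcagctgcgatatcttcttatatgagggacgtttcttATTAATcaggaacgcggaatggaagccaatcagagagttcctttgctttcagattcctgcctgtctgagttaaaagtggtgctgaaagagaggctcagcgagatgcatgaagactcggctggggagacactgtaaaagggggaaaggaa

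The next 5 are the central 300 bases, on the plus strand, of the widest domain at any of the 10 genes with a given pattern over the lists. They are an intron of Cdh18 open only in EBs (chr15:22761392-22761691), a region downstream of Cdh11 open in every list but EB (chr8:102103631-102103930), and the widest induction-associated domain of each line. An induction-associated domain is one that overlaps no progenitor and no No Dox domain. These lay upstream of Cdh7 for iHoxc6 (chr1:109837310-109837609), between Cdh9 and Cdh10 for iHoxc9 (chr15:17797727-17798026) and in an intron of Cdh22 for iHoxc10 (chr2:165211612-165211911).
Cdh18 EB-only site: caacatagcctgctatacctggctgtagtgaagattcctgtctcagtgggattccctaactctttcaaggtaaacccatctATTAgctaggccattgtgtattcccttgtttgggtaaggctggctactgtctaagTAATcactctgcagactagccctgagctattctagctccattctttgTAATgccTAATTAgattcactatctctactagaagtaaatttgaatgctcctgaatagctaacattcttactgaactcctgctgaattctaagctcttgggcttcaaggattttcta
Cdh11 site absent in EB: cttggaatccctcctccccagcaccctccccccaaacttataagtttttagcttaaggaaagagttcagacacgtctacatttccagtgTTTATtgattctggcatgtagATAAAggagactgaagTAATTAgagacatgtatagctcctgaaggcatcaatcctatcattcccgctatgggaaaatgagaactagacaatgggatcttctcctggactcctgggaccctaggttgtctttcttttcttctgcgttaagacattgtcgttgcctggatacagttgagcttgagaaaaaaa
Cdh7 iHoxc6 site: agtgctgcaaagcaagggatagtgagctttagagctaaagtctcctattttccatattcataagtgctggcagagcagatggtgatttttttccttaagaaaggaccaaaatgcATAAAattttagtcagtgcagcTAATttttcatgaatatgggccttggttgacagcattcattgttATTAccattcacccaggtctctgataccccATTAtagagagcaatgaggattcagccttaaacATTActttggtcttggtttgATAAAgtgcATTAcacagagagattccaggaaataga
Cdh9 iHoxc9 site: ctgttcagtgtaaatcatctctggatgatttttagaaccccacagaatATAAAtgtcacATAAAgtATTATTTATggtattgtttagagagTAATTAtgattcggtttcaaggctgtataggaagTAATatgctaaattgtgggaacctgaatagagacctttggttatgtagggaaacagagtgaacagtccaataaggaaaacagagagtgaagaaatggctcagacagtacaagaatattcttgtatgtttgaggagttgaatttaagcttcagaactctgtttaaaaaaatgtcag
Cdh22 iHoxc10 site: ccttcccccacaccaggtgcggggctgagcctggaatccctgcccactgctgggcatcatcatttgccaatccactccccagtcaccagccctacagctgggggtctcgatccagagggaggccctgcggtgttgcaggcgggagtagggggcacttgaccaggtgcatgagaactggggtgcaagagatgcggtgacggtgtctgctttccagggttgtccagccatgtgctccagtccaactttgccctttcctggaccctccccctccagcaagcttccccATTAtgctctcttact

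The iHoxc9 site near Cdh9 held 4 matches to TAAT and 3 to TTTAT in a window of 34.0% GC. In the iHoxc9 list, 37.7% of 2588 domains of a width within 10% of it held TAAT in their central window and 25.2% held TTTAT. These domains, like those compared below, were matched on width and not on GC content or pattern. Of all induction-associated iHoxc9 domains of at least 150 bp, 88.0% held TAAT and 83.9% TTTAT over their full length. The iHoxc6 site near Cdh7 held 5 TAAT and 2 TTTAT, strings present in 71.3% and 47.8% of 4200 iHoxc6 domains of like width. The iHoxc10 site in Cdh22 held 1 TAAT and no TTTAT at 61.0% GC, against 63.5% and 45.4% of 3048 iHoxc10 domains with at least one such match. The EB-only Cdh18 site held 5 TAAT and no TTTAT, strings present in 30.8% and 16.5% of 2922 EB domains of like width. The Cdh11 site absent in EB held 2 of each, strings present in 30.4% and 18.5% of 2502 No Dox domains of like width. A match is a string of letters and does not show that a factor was bound.

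The family lay in gene-poor stretches of the genome, and its accessible chromatin, summed over the genes, was sparse and mostly distant from any start site. The stretches in which a domain would be assigned to the 10 genes summed to 20.9 Mb, 0.767% of the genome. Cdh22 (chr2:165111507-165234853) was the exception, with 0.148 Mb, whereas the others had 1.38 Mb, at Cdh12, to 3.45 Mb, at Cdh8. Cdh6, Cdh9, Cdh10, Cdh12 and Cdh18 followed one another on chromosome 15. Cdh8 and Cdh11 lay on chromosome 8, and Cdh7 and Cdh20 on chromosome 1.

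Domains were found at 17.1 per Mb of these stretches in EBs, 14.1 in progenitors, 15.7 in No Dox and 17.1, 13.9 and 9.28 in the iHoxc6, iHoxc9 and iHoxc10 lists. The genome as a whole held 34.8, 32.3, 32.6, 33.5, 23.3 and 20.6 per Mb in the same order, so the 10 genes together were the sparser in every list. Cdh22 alone, with 74.5 to 176 per Mb, was above the genome in each. Between 69.6% of the family's domains, in iHoxc10, and 75.3%, in iHoxc9, lay more than 100 kb from any protein-coding TSS, against 19.7% to 24.0% of all domains. Shares of domains new in or absent from a list are therefore given also beyond 100 kb, for domains of at least 150 bp. The 100 kb boundary was chosen after the data were seen.

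The covered length summed over the 10 genes was 56570 bp in EBs, 56744 in progenitors, 73129 in No Dox and 63703, 51848 and 42655 in the iHoxc6, iHoxc9 and iHoxc10 lists. As a share of the covered length of each list this was 0.245%, 0.221%, 0.246%, 0.257%, 0.292% and 0.212%. The iHoxc9 list was thus shorter than all but the iHoxc10 list at these genes, yet gave them the highest share. Domains of at least 150 bp, about the length of DNA in a nucleosome and shown apart throughout, numbered 122, 122, 148, 122, 118 and 97 in the same order. They made up 34.2% (29.4 to 39.2) of the family's domains in EBs and iHoxc6 and 45.1% (39.8 to 50.5) in No Dox, against 44.1%, 45.1% and 50.8% of the whole lists.

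**Figure D1:**
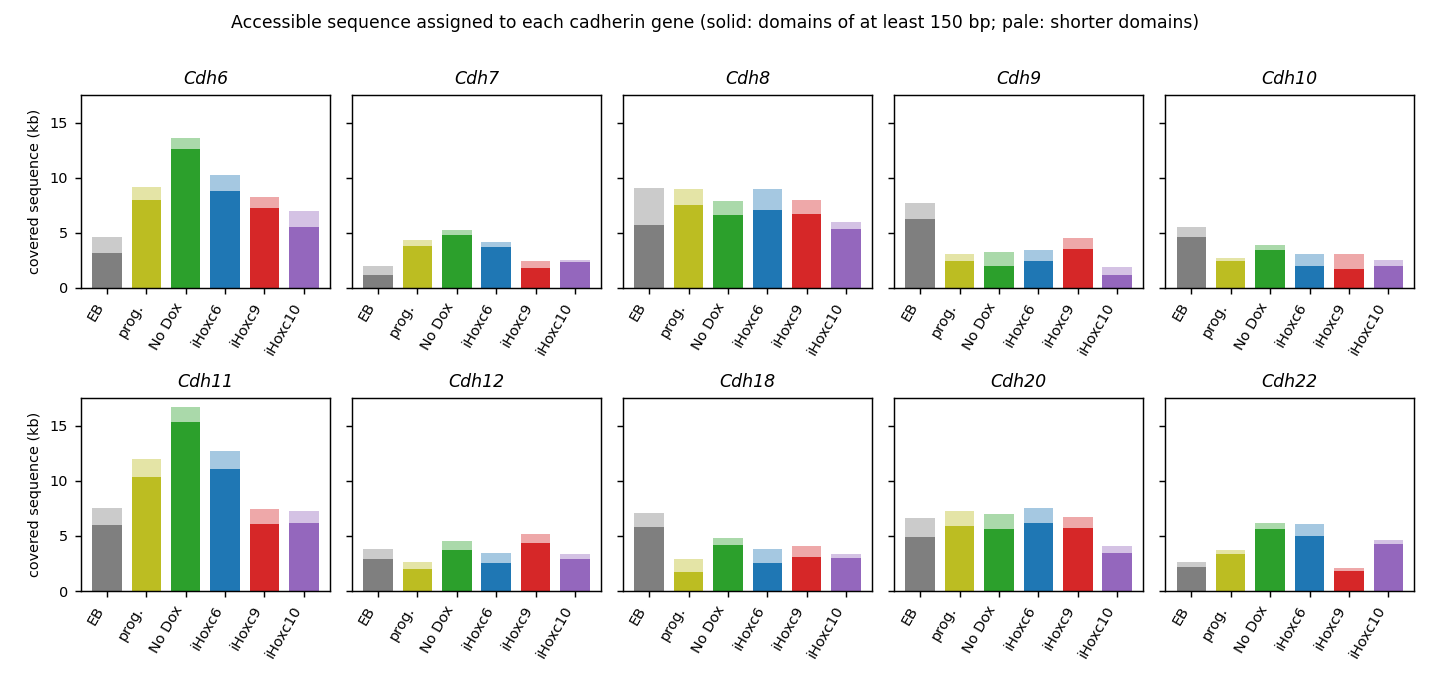
Covered sequence in kb (y axis) assigned to each cadherin gene in the 6 lists (x axis), with solid bars for domains of at least 150 bp and pale bars for shorter ones. Cdh6 and Cdh11 stand at 13611 and 16696 bp in No Dox and at 4618 and 7536 bp in EBs, whereas Cdh9 has its highest value, 7674 bp, in EBs.

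All 10 genes had a domain at a promoter in every list, and the amount of open sequence there differed by gene and list. Of all protein-coding genes, 59.7% had a promoter domain in every list, and of the 2492 genes with a body of at least 100 kb, as every member has, 84.3% did. With domains of at least 150 bp, 7 of 10 members had one in every list, against 54.8% of all genes. The 3 that did not were Cdh9, Cdh12 and Cdh22, each of which is described below.

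Cdh8, a cadherin of synapses and sensory circuits, had the widest single promoter domain, 1947 bp in iHoxc6. In every other list the widest promoter domain of Cdh6 exceeded that of Cdh8, for example 1673 against 1373 bp in No Dox. The window around the Cdh8 gene start (chr8, position 99416471, minus strand) was covered over 1112 bp in EBs, 1138 in progenitors, 1254 in No Dox and 1449, 889 and 983 in the iHoxc6, iHoxc9 and iHoxc10 lists, of 2 kb. The window at the single start of Cdh6, known as K-cadherin from kidney, was covered over 866, 1272, 1548, 1307, 1036 and 1220 bp in that order. Both promoters were thus open over at least 866 bp in each list.

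Cdh11, a cadherin of mesenchyme and of the nervous system, was covered over 538 to 858 bp at its start, with the lowest value in progenitors and the highest in iHoxc6. Cdh20, named MN-cadherin for its expression in chick motor neurons, had 632 bp in EBs, 744 in progenitors, 1084 in No Dox and 1149, 717 and 651 in the iHoxc6, iHoxc9 and iHoxc10 lists. No Dox and iHoxc6, the lists of the Ainv15(iFlag.Hoxc6) line, stood above the other 4 here. At Cdh22, a cadherin first described in pituitary and brain, the window was covered over 897, 1181, 960, 872, 203 and 617 bp, so that iHoxc9 had the least, with no promoter domain of 150 bp.

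Cdh12, a cadherin of the brain, had a promoter that was nearly closed in progenitors and open in the day 4 lists. Around the more downstream of its 2 protein-coding starts (position 21111452), 108 bp were covered in EBs, 26 in progenitors, 614 in No Dox and 504, 873 and 422 in the iHoxc6, iHoxc9 and iHoxc10 lists. The day 4 lists were all above the EB and progenitor lists. Around the other start (21110125) the values were 423, 0, 46, 36, 523 and 154 bp, highest in iHoxc9 and EBs. The RefSeq window printed above was not covered in EBs or progenitors, covered in full in No Dox, iHoxc6 and iHoxc9, and covered over 192 bp in iHoxc10. A further region at the 5′ end of the Cdh12 gene record (chr15:20448883-20449619), where no protein-coding transcript starts, was open in every list, with widths of 737, 108, 579, 389, 544 and 221 bp.

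Cdh9, a cadherin of hippocampal synapses, had a narrow promoter domain, with 244 bp covered in EBs, 474 in progenitors, 39 in No Dox and 527, 204 and 125 in the iHoxc6, iHoxc9 and iHoxc10 lists around position 16728756. The No Dox value was the lowest although iHoxc6, from the same line, had the highest. The second start of Cdh9 had no covered sequence in any list.

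At Cdh18 the start at position 23036463 was open in every list, with 639 to 1240 bp covered, whereas the most upstream start (22549022) was covered over 278 bp in progenitors, 199 in No Dox and 36 in iHoxc9 and not at all in EBs, iHoxc6 or iHoxc10. Cdh10 was open at its first start, with 431 to 702 bp, and its second start, less than 2 kb downstream, had 37 bp in No Dox, 13 bp in iHoxc10 and none elsewhere. At Cdh7 the cluster of starts at the 5′ end was covered over 804 bp in EBs, 659 in progenitors, 997 in No Dox and 365, 466 and 512 in the iHoxc6, iHoxc9 and iHoxc10 lists, and the starts at 109993982 and 110099295 had none. In each of these genes the start with the most covered sequence was the same in all lists.

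**Figure D2:**
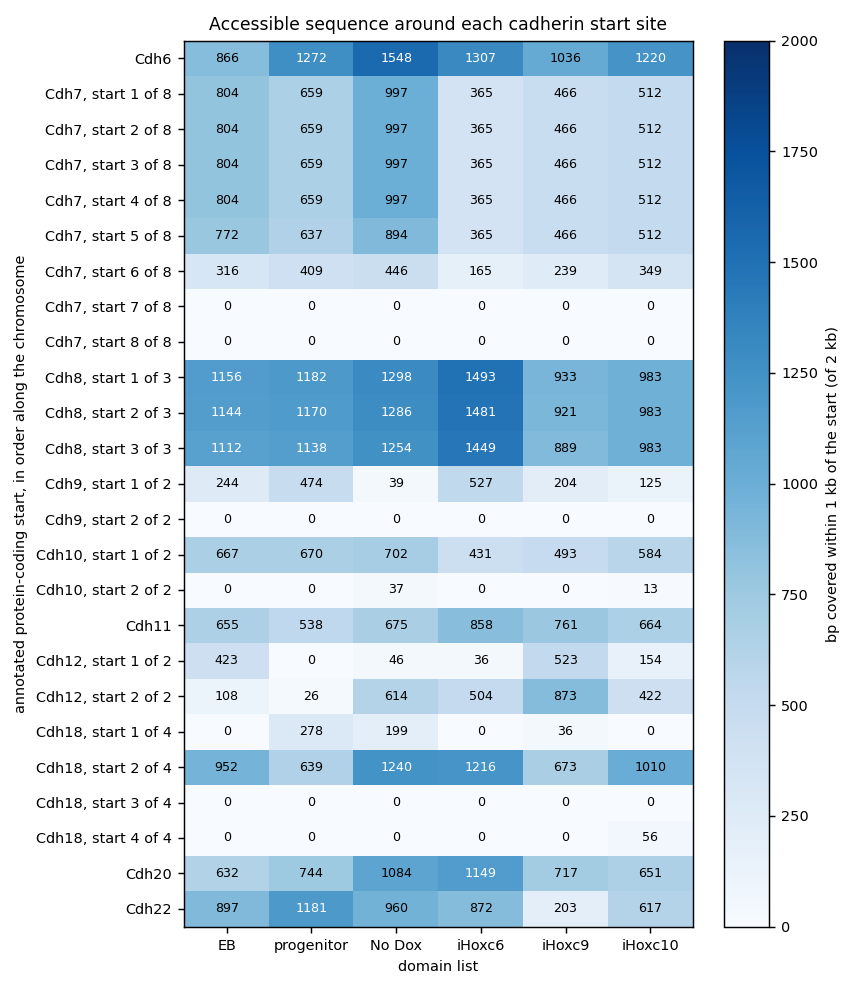
Length of sequence in bp covered by domains within 1 kb to either side of each annotated protein-coding start (rows, 2 kb windows) in the 6 lists (columns). The second Cdh12 start ranges from 26 to 873 bp and the first Cdh9 start from 39 to 527 bp, and 2 starts of Cdh7 and 1 each of Cdh9 and Cdh18 have 0 in every list.

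Between EBs and the progenitor and No Dox lists the genes differed in opposite directions. Cdh6, Cdh7, Cdh11 and Cdh22 covered more sequence in both progenitors and No Dox than in EBs, and Cdh9, Cdh10 and Cdh18 covered less in both. Relative to EBs, Cdh8 was slightly lower in both (0.990 in progenitors and 0.867 in No Dox) and Cdh20 slightly higher in both (1.09 and 1.05). Cdh12 was lower in progenitors (0.683) and higher in No Dox (1.20). No Dox values within 1.5-fold of EBs were found at Cdh8, Cdh10, Cdh12, Cdh18 and Cdh20. Because these sums rest on 1 list per group, the ratios are descriptions.

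Cdh11 covered 7536 bp in EBs, 11955 in progenitors and 16696 in No Dox. Cdh6 covered 4618, 9177 and 13611 bp, Cdh7 1957, 4336 and 5219 bp, and Cdh22 2617, 3750 and 6170 bp. In each of these 4 genes progenitors lay between EBs and No Dox. The No Dox to EB ratios were 2.95 for Cdh6, 2.67 for Cdh7, 2.36 for Cdh22 and 2.22 for Cdh11, relative to 1.29 for the whole lists. With promoter and body domains only, Cdh11 was at 1.32 and no longer past 1.5-fold.

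Cdh9 covered 7674 bp in EBs, 3065 in progenitors and 3287 in No Dox, Cdh18 covered 7113, 2868 and 4843 bp, and Cdh10 covered 5520, 2737 and 3908 bp. In all of these the value was lowest in progenitors. Their No Dox to EB ratios were 0.428, 0.681 and 0.708. At least 1.5-fold more in No Dox than in EBs was covered at 4 of 10 members and at 33.9% of 17651 genes with a domain, and 1.5-fold less at 1 of 10 members, Cdh9, and at 14.9% of genes. The shares of members lay near these backgrounds, and the median ratio was 1.12 over the members and 1.25 over all such genes.

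For progenitors against EBs, 3 members were at least 1.5-fold higher (Cdh7 at 2.22, Cdh6 at 1.99 and Cdh11 at 1.59) where 22.2% of genes were, and 3 were as far below (Cdh9 at 0.399, Cdh18 at 0.403 and Cdh10 at 0.496) where 16.6% were. With promoter and body domains only, Cdh6 and Cdh7 were at 1.09 and 1.29, and Cdh9 was above EBs, at 1.35. For No Dox against progenitors, Cdh12, Cdh18 and Cdh22 were at least 1.5-fold higher, at 1.76, 1.69 and 1.65, where 18.6% of genes were, and no member was as far below, where 9.21% were.

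Merging overlapping domains of all lists gave 1030 regions at the family, of 218562 in all. Of these, 741 were held by 1 list and 46 by all 6, that is 4.47% of the family's regions against 11.2% of all. Among 339 regions with a domain of at least 150 bp, 37 were held by all lists, 10.9% against 28.3% of all such regions. EB-only regions made up 66 of the 339, 19.5% against 13.2%. Shares of merged regions, here and in the next paragraph, were not matched for distance to a TSS.

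Of regions at single genes, EB-only ones numbered 15 of 38 at Cdh9, 10 of 26 at Cdh10, 10 of 33 at Cdh18 and 10 of 51 at Cdh8. Cdh12 and Cdh6, on the same chromosome as the first 3 of these, had 5 of 25 and 3 of 40. Regions open in both progenitors and No Dox but not in EBs numbered 77 of 339, 22.7% against 17.0% of all such regions, with 21 of 57 at Cdh11, 5 of 16 at Cdh7 and 12 of 40 at Cdh6. Cdh22 had the highest share open in all lists, 6 of 19. The widest region with the first of these patterns was the Cdh18 intron printed above, a domain of 746 bp, and that with the second, present in all 5 patterned lists, the Cdh11 region, with 560 bp in progenitors, 1288 in No Dox and 821, 786 and 870 in the iHoxc6, iHoxc9 and iHoxc10 lists, 682 kb from the Cdh11 start.

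**Figure D3:**
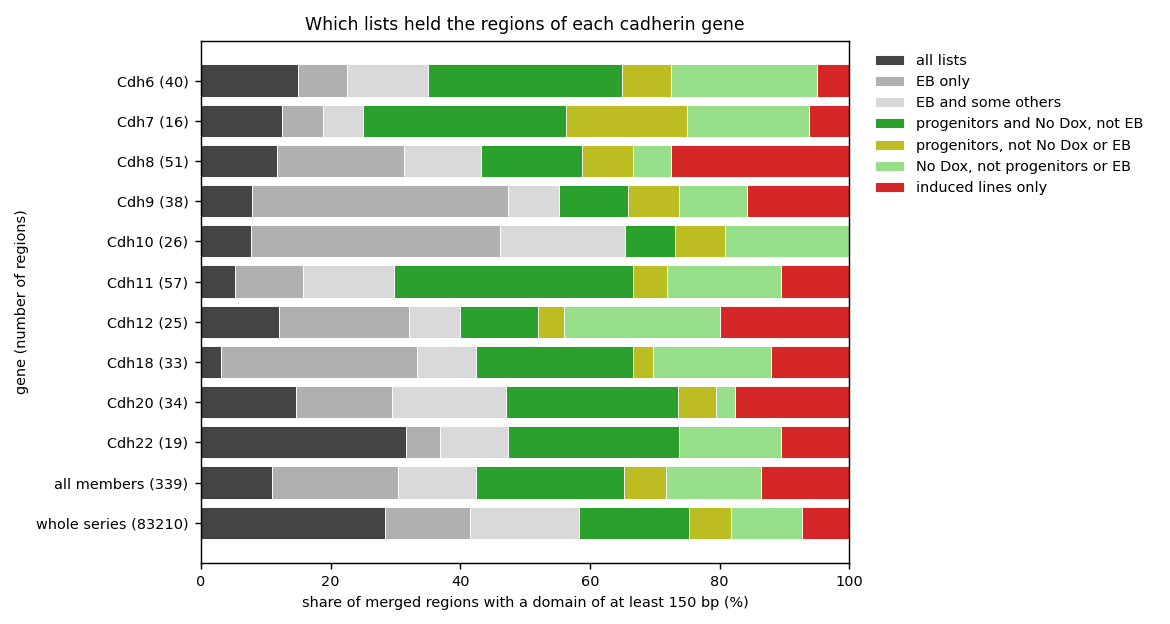
Share in % (x axis) of merged regions with a domain of at least 150 bp, by which lists held them, for each gene (number of regions in brackets), the 10 genes together and all regions. Grey EB-only bars are longest at Cdh9 (39.5%) and Cdh10 (38.5%), dark green bars at Cdh11 (36.8%), and red bars, for regions in induced lists alone, at Cdh8 (27.5%).

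Counted as domains of any width, 212 of 295 progenitor domains at the family overlapped no EB domain, 71.9% (66.5 to 76.7) against 55.4% of all, and 274 of 357 EB domains overlapped no progenitor domain, 76.8% (72.1 to 80.8) against 57.4%. Many of these were short. Of domains of at least 150 bp, 76 of 122 progenitor domains were new, 62.3% (53.4 to 70.4) against 37.1% of the whole list. Beyond 100 kb from a TSS the shares were 70.4% (59.7 to 79.2) and 70.9%, which differed by less than the counting error. Conversely, 76 of 122 EB domains were absent from progenitors, 62.3% (53.4 to 70.4) against 32.6%, and beyond 100 kb 71.4% (61.0 to 80.0) against 58.6%. Beyond this boundary the list's share of absent EB domains lay just below the interval of the family, but distance within the range was not matched.

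From progenitors to No Dox the turnover was smaller. Of domains of any width 182 of 328 were new in No Dox, 55.5% (50.1 to 60.8) against 44.9%, and 144 of 295 progenitor domains were absent from No Dox, 48.8% (43.2 to 54.5) against 43.1%. Of at least 150 bp, 46 of 148 domains were new in No Dox, 31.1% (24.2 to 38.9) against 19.1%, and beyond 100 kb 35.7% (26.9 to 45.6) against 30.0%. The most were at Cdh6, with 9 of 29, and at Cdh10 and Cdh11, with 7 of 11 and 7 of 33. Of such progenitor domains 26 of 122 were absent from No Dox, 21.3% (15.0 to 29.4) against 16.0%, and beyond 100 kb 27.2% against 27.1%. The widest progenitor-only domain measured 408 bp, 543 kb upstream of Cdh11, and the widest No Dox-only domain 296 bp, in an intron of Cdh22.

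**Figure D4:**
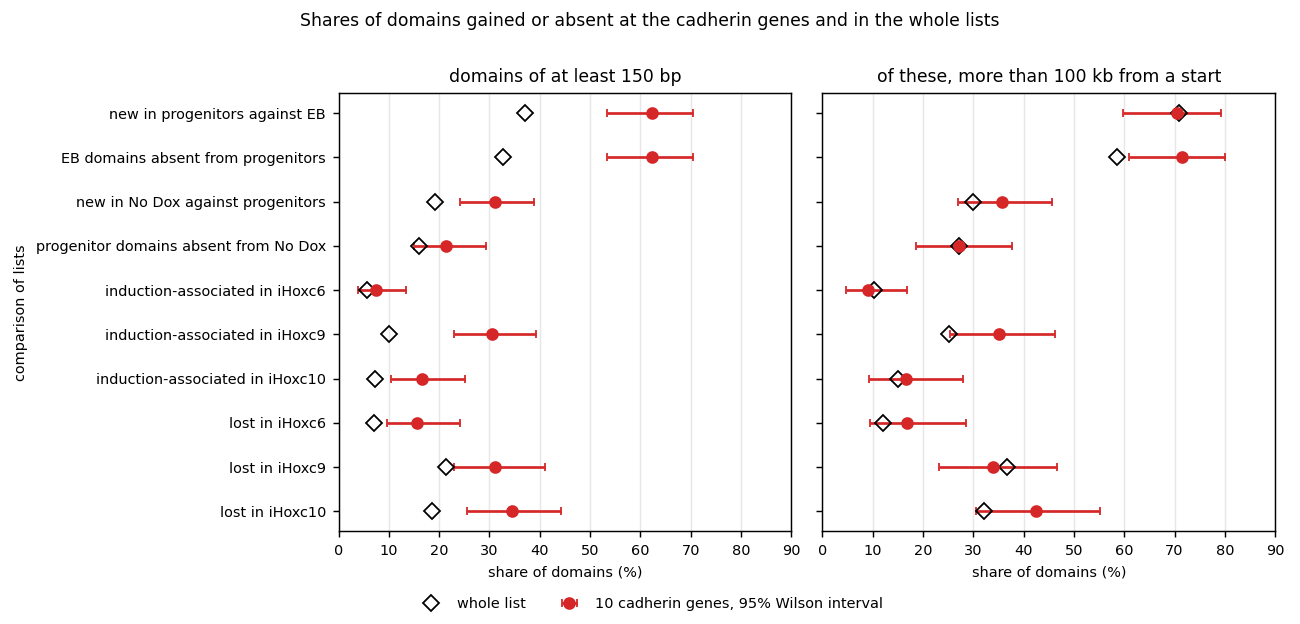
Shares in % (x axis) of domains of at least 150 bp in 10 comparisons of lists (rows), for the 10 cadherin genes (filled circles, bars for 95% Wilson intervals) and for the whole lists (open diamonds), at all distances (left) and beyond 100 kb from a start (right). The gaps between circles and diamonds on the left are mostly smaller on the right, for example 62.3% against 37.1% and 70.4% against 70.9% for domains new in progenitors.

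Which of the family's domains appear or vanish when a Hox factor is induced was asked by setting each induced list against the progenitor and No Dox lists, which all 3 lines share. New domains of at least 150 bp were most frequent in iHoxc9, with the most at Cdh8. Of domains of any width, 168 of 357 at the family were induction-associated in iHoxc6, 47.1% (41.9 to 52.2) against 33.4%, 147 of 291 in iHoxc9, 50.5% (44.8 to 56.2) against 26.0%, and 58 of 194 in iHoxc10, 29.9% (23.9 to 36.7) against 18.5%. Of at least 150 bp, 36 of 118 iHoxc9 domains at the family were induction-associated, 30.5% (22.9 to 39.3) against 10.1% of the whole list. In iHoxc10 16 of 97 were, 16.5% (10.4 to 25.1) against 7.31%, and in iHoxc6 9 of 122, 7.38% (3.93 to 13.4) against 5.61%.

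Beyond 100 kb from a TSS the share in iHoxc9 was 27 of 77, 35.1% (25.3 to 46.2), against 25.2% of the list, just below the interval. In iHoxc10 it was 16.7% (9.31 to 28.0) against 15.0%, and in iHoxc6 9.09% (4.68 to 16.9) against 10.3%. Without Cdh8, a subset formed after the values were seen, the iHoxc9 share was 25 of 98 at all distances, 25.5% (17.9 to 35.0), and 17 of 61 beyond 100 kb, 27.9% (18.2 to 40.2). The list's 25.2% beyond 100 kb lay inside the latter interval.

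Cdh8 held 11 induction-associated domains of 20 in iHoxc9, 6 of 15 in iHoxc10 and 1 of 13 in iHoxc6. The widest in iHoxc9 measured 642 bp at chr8:98627975-98628616, 788 kb downstream of the start, and was in no other list. Shared with iHoxc10 were a domain in a Cdh8 intron (chr8:99388658-99389048, 27.6 kb from the start, 349 bp in iHoxc9, 226 bp in iHoxc10 and 34 bp in iHoxc6) and one 205 kb upstream (253 and 169 bp). A pair of neighbouring regions 1520 and 1521 kb downstream was also held by both, with 191 and 333 bp in iHoxc9 and 214 and 312 bp in iHoxc10.

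Cdh9 held 5 of 9 in iHoxc9, none of 3 in iHoxc10 and 2 of 8 in iHoxc6. All 5 were in the iHoxc9 list alone. They comprised a pair near 75 kb upstream of the start (217 and 438 bp), a domain of 386 bp at 1336 kb upstream, and a pair of 496 and 687 bp at 1016 and 1020 kb downstream. The last of these is the site printed above. Both domains of this pair lay near the border of the stretch assigned to Cdh10, so their assignment to Cdh9 rests on a short distance.

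Cdh12 had 5 of 13 in iHoxc9, all in introns, of which the widest, 446 bp, lay 29.8 kb upstream of a start. Cdh20 had 5 of 14, from 481 to 2271 kb upstream of its start, and 1 of these, at chr1:103622027-103622512, measured 486 bp in iHoxc9 and 252 bp in iHoxc10. The rest were 4 of 17 at Cdh11, 3 of 8 at Cdh18, 2 of 21 at Cdh6 and 1 of 6 at Cdh22, with none of 5 at Cdh7 and at Cdh10. A Cdh11 region at chr8:101522759-101523211 was the 1 region with a new domain of at least 150 bp in all 3 lines, with 206 bp in iHoxc6, 405 in iHoxc9 and 239 in iHoxc10.

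In iHoxc10, 3 of 11 domains of Cdh22 were induction-associated. The widest, of 418 bp at chr2:165211553-165211970, 23.1 kb into the gene, overlapped a domain of 41 bp in iHoxc6 and none in iHoxc9, and the next, 31.2 kb into the gene, measured 372 bp in iHoxc10 and 359 bp in iHoxc9. In iHoxc6 the widest was that of 304 bp near Cdh7, with 42 bp in iHoxc9. Of the 36 iHoxc9 domains, 11 overlapped an iHoxc10 domain and 5 an iHoxc6 domain, 30.6% and 13.9% against 34.5% and 26.8% of all such iHoxc9 domains, and none overlapped an EB domain, against 4.64%.

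The induction-associated domains of the family held both cores more densely than its other domains in all 3 lines, as such domains did over the whole lists. In iHoxc9, TTTAT occurred 8.73 times per kb in the 36 domains and 4.22 times per kb in the other 82 domains of the family. It was held by 34 of the 36, 94.4%, and by 62.2% of the other 82. In the whole list the densities were 7.51 and 1.57 per kb, and 83.9% and 43.0% of domains held it. GC content moved with it, at 38.9% and 46.9% in the family and 43.6% and 59.5% in the list, and its part in the densities was not tested. In iHoxc10 the TTTAT densities were 7.24 and 3.56 per kb in the family and 4.87 and 1.60 in the list, and in iHoxc6 5.34 and 3.46 in the family and 3.39 and 1.58 in the list. TAAT occurred 17.0 times per kb in the 9 iHoxc6 domains and 8.76 in the others of the family, 14.6 and 9.09 in iHoxc9 and 11.4 and 9.23 in iHoxc10. Over the whole lists its densities were 9.33 and 3.97 in iHoxc6, 11.3 and 3.47 in iHoxc9 and 9.68 and 3.79 in iHoxc10. In the family, TAAT was held by 88.9% and 85.8% of domains in iHoxc6, 97.2% and 81.7% in iHoxc9 and 81.2% and 82.7% in iHoxc10. In iHoxc10 it was thus not held by a larger share of the induction-associated domains. Over the whole lists the shares were 76.1% and 69.0%, 88.0% and 62.9%, and 79.8% and 67.6%. TTTAT was held by 77.8% and 66.4% of the family's domains in iHoxc6 and 75.0% and 64.2% in iHoxc10.

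**Figure D5:**
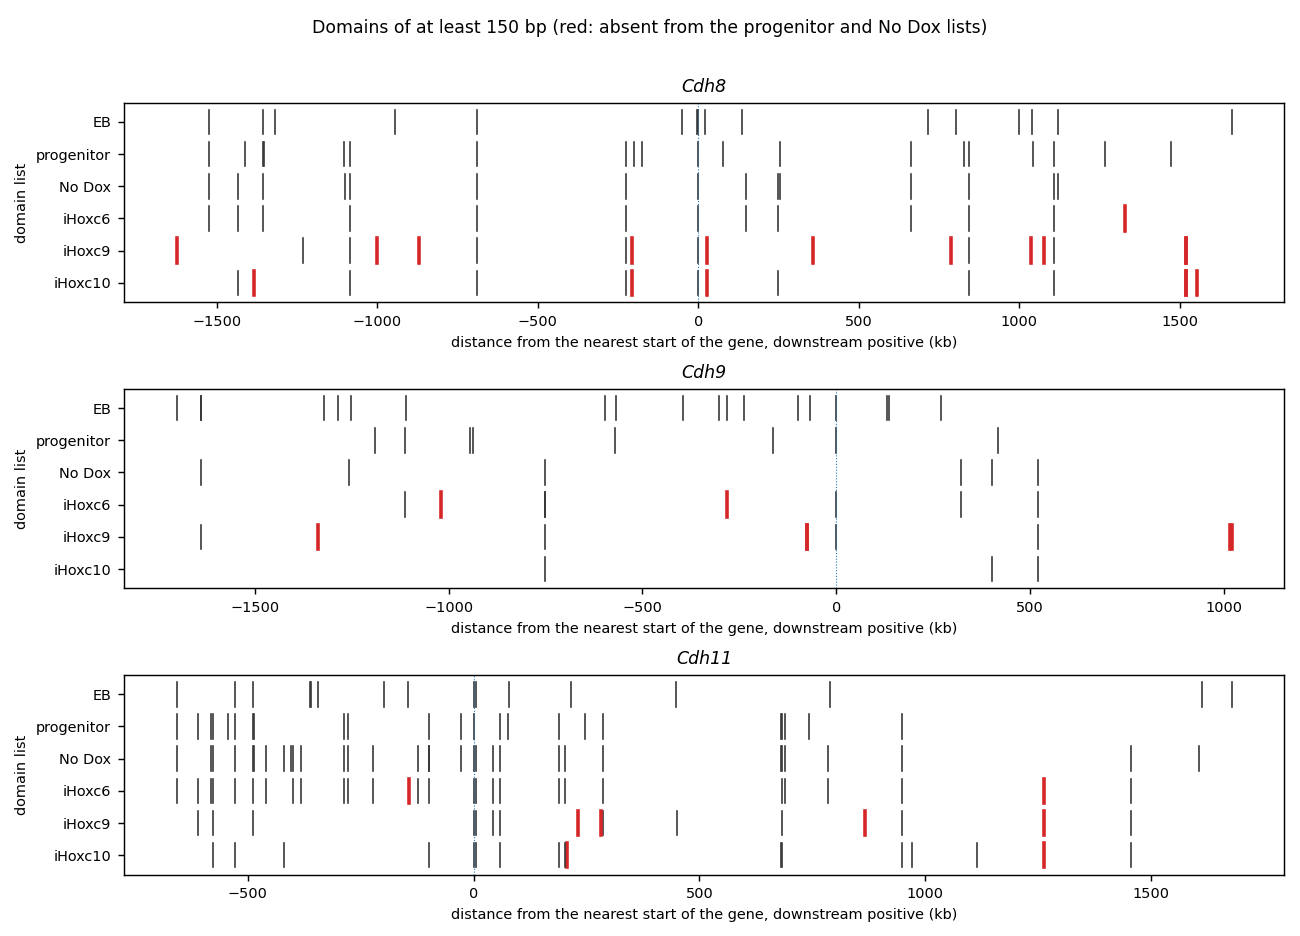
Positions of regions with a domain of at least 150 bp at Cdh8, Cdh9 and Cdh11, as distance in kb from the nearest start of the gene (x axis), in each list (rows), red where the progenitor and No Dox lists held none. Red marks are most numerous in the iHoxc9 row of Cdh8, with 11, against 6 in iHoxc10 and 1 in iHoxc6.

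Covered length in the induced lists was lower than in No Dox at most members, as it was over the whole lists. In iHoxc9 the ratio to No Dox was 0.342 for Cdh22, 0.449 for Cdh11, 0.462 for Cdh7 and 0.604 for Cdh6, whereas Cdh9 (1.38), Cdh12 (1.13) and Cdh8 (1.01) were not lower. With promoter and body domains only, Cdh11 was at 0.887. With the 5′ end of the gene record as the start, Cdh9 was at 1.01, and Cdh10 was at 1.09, from 0.788. The members 1.5-fold lower numbered 4, where 58.8% of 17017 genes were, and no member was 1.5-fold higher, where 2.56% were. The median ratio of 0.820 over the members stood beside 0.614 over all such genes, 0.610 over those with a body of at least 100 kb and 0.597 for the whole list.

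In iHoxc10, 6 members were 1.5-fold lower than in No Dox (Cdh11 at 0.435, Cdh7 at 0.488, Cdh6 at 0.512, Cdh9 at 0.576, Cdh20 at 0.583 and Cdh10 at 0.652), where 43.7% of genes were, and none 1.5-fold higher, where 2.73% were. In iHoxc6 no member differed by 1.5-fold in either direction, and Cdh8 had the highest ratio at 1.14. Of genes, 5.59% were as far above and 20.9% as far below.

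Lost domains, those of progenitors also held by No Dox and absent from an induced list, were counted first over 151 domains of any width. Of these 29 were lost in iHoxc6, 19.2% (13.7 to 26.2) against 14.1%, 57 in iHoxc9, 37.7% (30.4 to 45.7) against 30.0%, and 55 in iHoxc10, 36.4% (29.2 to 44.3) against 28.4%. Of at least 150 bp there were 96 such domains. In iHoxc10 33 were lost, 34.4% (25.6 to 44.3) against 18.6% of the list, in iHoxc9 30, 31.2% (22.9 to 41.1) against 21.3%, and in iHoxc6 15, 15.6% (9.70 to 24.2) against 7.03%. Beyond 100 kb the shares were 42.4% (30.6 to 55.1) against 32.1%, 33.9% (23.1 to 46.6) against 36.7%, and 16.9% (9.48 to 28.5) against 12.0%, all with the list's value inside the interval. The same pair of control lists defined the losses of each line.

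Cdh11, which had the most such domains, also lost the most in number, 9 of 21 in iHoxc10 and 8 of 21 in iHoxc9. It lost 2 of 21 in iHoxc6. Over the family 34.4% were lost in iHoxc10 and 31.2% in iHoxc9. As a share Cdh9 lost more, 3 of 4 in iHoxc10 and in iHoxc9, of few domains. Of the Cdh11 regions, that at chr8:103314167-103315004, 831 bp in progenitors, 749 in No Dox and 496 in iHoxc6, was absent from iHoxc9 and measured 196 bp in iHoxc10. That at chr8:103272452-103273300, 575, 849 and 348 bp in the same lists, was absent from iHoxc10 and measured 210 bp in iHoxc9.

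At Cdh20 the widest progenitor domain of the family, 1441 bp at chr1:105012182-105013622, lay 244 kb downstream of the start. It measured 254 bp in EBs, 639 in No Dox, 584 in iHoxc6 and 176 in iHoxc9 and was absent from iHoxc10. At Cdh6 a region at chr15:14458820-14459423, with 604 bp in progenitors, 526 in No Dox and 281 in iHoxc6, was absent from EBs, iHoxc9 and iHoxc10.

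Around the family, type I cadherins and catenins were read by the same promoter rule. All 7 catenin genes had a promoter domain in every list. Of 5 type I cadherins, Cdh2 (N-cadherin) and Cdh4 (R-cadherin) had one in every list. Cdh1 (E-cadherin) had one in all but iHoxc9, Cdh3 (P-cadherin) in all but iHoxc9 and iHoxc10, and Cdh15 (M-cadherin) in EBs alone. Of 3 other type II cadherins, Cdh24 had one in every list and the endothelial Cdh5 and glial Cdh19 in none.

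Markers of cell type gave a check of the labels. Promoter domains were found at 6 of 6 pluripotency genes in EBs, 3 in progenitors and 1, Esrrb, in each day 4 list. The presence of a domain at motor neuron promoters did not separate the stages, with 6 of 6 open in every list but iHoxc9, where Chat was missing, and all 5 ventral progenitor promoters were open in every list. Of 6 promoters of other spinal neurons, 6 were open in EBs, progenitors and No Dox, 5 in iHoxc6 and iHoxc10 and 4 in iHoxc9. Those of mesoderm and endoderm were open at 5 of 5 genes in EBs and progenitors and 4 at day 4, of floor plate at 2 of 2 in progenitors, No Dox and iHoxc6 and 1 in the others, and of mesenchyme and endothelium at 2 of 4 in EBs and iHoxc9 and 3 in the others. Covered length at these markers did differ between lists, at Mnx1 with 1603 bp in EBs, 1949 in progenitors, 6377 in No Dox and 4925, 2269 and 4679 in the iHoxc6, iHoxc9 and iHoxc10 lists. Chat covered 2124, 2535, 4663, 2859, 713 and 2967 bp and Olig2 1300, 5345, 6714, 4521, 2489 and 5210 bp in the same order, so that No Dox was highest at all 3 genes. So it was at the other motor neuron and ventral progenitor markers except Lhx3 (3013 bp in iHoxc10, 2833 in No Dox) and Sox1 (6995 in progenitors, 6384 in No Dox). Markers of other classes varied, with Gata3 at 6148 bp in progenitors and 5165 in No Dox. The No Dox list also had the largest covered length of all lists, 29746737 bp. Whether a difference in cell composition had a part in the cadherin values was not tested.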

How the data were processed

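Per the study's methods and the submitters' processing notes, the authors aligned paired-end ATAC-seq reads to mm10 with Bowtie2 2.2.2, used Picard 2.8.2 and called accessible domains with DomainFinder of SeqCode, with the 2 replicates of a group combined in 1 list. The deposited files give each domain a start and an end but neither a height nor a count of reads. The No Dox list has 3 further columns, all constant, and its name carries another day and setting than its label, so it may have been called differently. Its label was used.

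Starts were read as counting from 0, as in the BED format, and are uncertain by 1 bp. Genes and start sites were those of GENCODE M21 protein-coding genes and sequences those of GRCm38.p6 from RefSeq, whose promoter table matched 9 of the 10 genes. Domains sharing at least 1 bp were counted as shared. Sites were named by the widest domain for each pattern over the lists. The 10 genes and all gene lists were chosen with earlier results of these data known. Alternatives were a minimum width of 50 or 150 bp, lists of equal length, other assignment rules, overlaps and promoter windows, and, added after the data were seen, distance over 100 kb and leaving out Cdh8. The work was done in Python 3.11.15 with NumPy 2.4.6, SciPy 1.17.1, pysam 0.24.0, Matplotlib 3.10.9 and samtools 1.23.1, and the overlap and assignment code was tested on simulated domains.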

Additional observations from a re-analysis of the deposited data

How the results depend on the processing

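Each list pools both replicates, so leaving out a replicate could not be run and depth sets an unknown limit. No paired analysis was possible because the lists carry no value per replicate. Of 165 counts under other settings, 107 stayed within 1.5 times the value reported and 58 did not, and 348 ratios of covered length moved by less than 1.5-fold and 11 by more. Of the 10 genes, 9 or 10 had a promoter domain in each list under every setting tried for promoters. In the following, lists are in the order EB, progenitor, No Dox, iHoxc6, iHoxc9 and iHoxc10, and lines in the order iHoxc6, iHoxc9 and iHoxc10.

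With domains of at least 50 bp in every list, the family held 206, 167, 205, 185 and 174 domains in the first 5 lists. New in progenitors were 118, absent from progenitors 156, new in No Dox 97 and absent from No Dox 56. Induction-associated were 42 in iHoxc6 and 69 in iHoxc9, and lost 17 in iHoxc6 and 34 in iHoxc10. With at least 150 bp in every list there were 122, 122, 148, 122, 118 and 97 domains, with 90 new in and 89 absent from progenitors, 73 new in and 45 absent from No Dox, 18, 44 and 24 induction-associated and 14, 31 and 31 lost. The counts of new, absent and induction-associated domains exceed those given in the report for at least 150 bp, where the list compared against kept its narrow domains.

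With each list cut to its 56232 widest domains, the first 4 lists held 179, 166, 176 and 180 domains, with 117 new in and 129 absent from progenitors and 72 new in and 58 absent from No Dox. Induction-associated were 46 in iHoxc6 and lost were 18, 34 and 31. With domains at a promoter or in a gene body only, the lists held 114, 89, 110, 111, 95 and 75 domains, with 53 new in and 79 absent from progenitors, 57 new in and 32 absent from No Dox, 44, 34 and 18 induction-associated and 11, 18 and 13 lost. Beyond 100 kb from a start, 19 domains of any width were lost in iHoxc6.

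One ratio of covered length changed direction. For Cdh9, progenitors to EBs, it was 0.399 as reported and 1.35 with promoter and body domains only, where most of its sequence is left out. Under that rule the iHoxc6 to No Dox ratio of Cdh9 was 3.90 and the No Dox to EB ratios of Cdh6, Cdh11 and Cdh20 were 1.70, 1.32 and 1.82. The progenitor to EB ratios of Cdh6 and Cdh7 were then 1.09 and 1.29, from 1.99 and 2.22, the No Dox to progenitor ratio of Cdh9 was 0.323 and the iHoxc9 to No Dox ratio of Cdh11 was 0.887, from 0.449. With the nearest TSS only, Cdh22 was at 1.54 for No Dox to EBs and 0.558 for iHoxc9 to No Dox, and with domains of at least 150 bp Cdh10 was at 0.481 for iHoxc9 to No Dox. A shared overlap of part of the shorter domain, a gap of up to 200 bp and the 5′ end of the gene record as the start moved no count by 1.5 times.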

Other observations

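Covered length summed over the 10 cadherin genes was most alike, among 2473 genes with a body of at least 100 kb, to that of Vps41, Fat1 and Lrp1b, with Pearson r of 0.9863, 0.9845 and 0.9800 over the 6 lists. Fat1, itself a cadherin-related gene, covered 5649 bp in EBs, 6045 in progenitors, 7270 in No Dox, and 6202, 5151 and 4305 bp in the lines induced for Hoxc6, Hoxc9 and Hoxc10. The lists share their depth and calling with every gene in them, and 118 genes had an r of at least 0.9, so the likeness is a description of few points.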
